A study of Mus musculus with 6 samples.

Results

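The constitutive proteasome genes, 44 in number, were described in sorted mouse marrow myeloid cells. They were taken by name, as the genes whose symbols begin with Psma to Psmg followed by digits, leaving out the immunoproteasome subunits Psmb8, Psmb9 and Psmb10. The set is 44 of 18193 genes with a probe set of their own on the array, and each gene was represented by its brightest of 96 probe sets in all. Of the 44 genes, 16 encode the core particle and 28 encode regulatory particles, caps, an inhibitor and assembly chaperones. Of the 44, 42 passed the level filter and were tested, among 10810 tested genes. The testis subunit gene Psma8 and the thymus subunit gene Psmb11 were too dim, with Psma8 above the array median on 1 of 6 arrays and Psmb11 on 0.

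Marrow was taken from femurs and tibias of HdcGFP females (C57BL/6 background), in which green fluorescence reports Hdc, the gene of the histamine-forming enzyme histidine decarboxylase. Both groups were sorted as CD11b+Gr1+ cells. The 3 GFP_plus samples were sorted as HdcGFP+/hi and the 3 GFP_min samples as HdcGFP-/lo, with no other treatment named. The free-text description of GFP_min replicate b reads Gr1-, against Gr1+ in its sorted-cell label. The labels give no age, no structure of the reporter construct and no statement on pooling, and they do not tie samples to animals, so the p-values measure the spread between samples, which may be technical.

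The proteasome is the protease that degrades ubiquitin-tagged proteins. Its barrel-shaped core is built of rings of alpha subunits, which gate the channel, and beta subunits, among which Psmb5, Psmb6 and Psmb7 carry the catalytic sites. The 19S regulatory particle consists of a base with an ATPase ring that unfolds substrates and a lid that removes ubiquitin. In immune cells and under interferon, Psmb8, Psmb9 and Psmb10 take the place of Psmb5, Psmb6 and Psmb7. The transcription factor encoded by Nfe2l1 is known to raise proteasome gene expression when proteasome activity falls short.

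The deposited values are log2 intensities, with array medians between 2.82 and 2.88. Arrays of one group correlated at 0.995 to 0.997 over tested probe sets and arrays of different groups at 0.961 to 0.967. All 8 monocyte markers were lower in GFP_plus, where their summed linear level lay between 3675 and 3783 per array, against 36981 to 37672 in GFP_min. Of 9 neutrophil markers on the table, 5 were higher and 0 lower, with sums of 126736 to 134350 in GFP_plus and 118453 to 121183 in GFP_min. Both groups thus carried the defining transcripts of neutrophils. The sums weigh S100a8 and S100a9 most, at 14.82 to 14.92 log2, where the highest value of each array lay between 14.83 and 14.92. They can hide differences of the other markers: Elane, Mpo, Csf3r, Cxcr2 and Mmp9 were higher by 1.72, 1.49, 0.71, 0.55 and 0.30 log2. Hdc, the gene behind the sort, was 0.82 log2 higher in GFP_plus. Of the 5 basophil markers on the table, 5 were higher in GFP_plus (sums of 34.5 to 34.7 in GFP_min and 228.6 to 314.2 in GFP_plus). Of these, Cpa3 and Fcer1a lay below the median of every GFP_min array. Of 6 dendritic cell markers 5 were lower (848.0 to 1026 in GFP_min against 141.1 to 161.9), with Cd209a and Irf4 below the median of every GFP_plus array. Such genes passed the level filter only through the group where they were high, so their calls carry little weight. Over all tested genes 21.0% were higher and 27.6% lower. Both tested genes of the T and NK list, Gzma and Klrd1, were lower (list sums of 56.8 to 73.2 in GFP_min and 25.8 to 33.0 in GFP_plus), while its T cell genes Cd3e and Cd3g lay below the median of every array. Both tested eosinophil markers were higher (156.0 to 179.1 against 413.3 to 514.7), and Ccr3 of that list lay below every median. Of 3 B cell markers 1 was lower, and of 3 platelet and 3 proliferation markers 2 and 1 were higher. These counts are too small to set against the shares of all genes. Of the platelet calls, Itga2b passed the level filter only through GFP_plus. The only tested erythroid gene, Car1, was called higher and also passed only through GFP_plus, while Klf1 and Hba-a1 lay below every median. The gap between the 3' and 5' probe sets of Gapdh, a sign of RNA quality, was 0.26 to 0.37 log2 in GFP_min and 0.59 to 0.66 in GFP_plus. The same gap of beta-actin was 0.79 to 0.83 and 0.82 to 0.90, with overlapping groups. The part of these cell type and RNA quality shifts in the results below was not tested. In bulk samples, fewer cells of a type and less RNA per cell cannot be told apart.

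Most proteasome genes were lower in GFP_plus cells on the deposited scale, a direction that turned in most of them when arrays were centred on ribosomal protein genes. Of the 42 tested, 29 were lower and 0 higher (limma, adjusted p under 0.05), where 27.6% of all tested genes were lower and 21.0% higher (48.7% either way). Of their 78 tested probe sets, 38 were lower and 2 higher, against 22.9% and 21.7% of all tested probe sets. The median difference was −0.31 log2, against 0.0023 over all tested genes. The shift was small in most genes, and only Psmg4 and Psma7 fell by more than 1 log2. All 3 GFP_plus arrays lay below all 3 GFP_min arrays in 30 of the 42 genes (32.1% of all genes), and the reverse pattern was seen in 0 (27.2% of all genes). The called gene whose groups overlapped was Psmd7. With genes required to lie above the median on all 6 arrays, Psmg4 dropped out and 28 of 41 were lower, against 28.0% of all genes. Leaving out each array in turn gave 22 to 26 lower genes and 0 higher ones, with 24 lower without GFP_min replicate b. Among bright genes, with a mean level of at least 8, 24 of 32 proteasome genes were lower and 0 higher, against 26.0% lower and 34.1% higher of all genes of that brightness.

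**Figure D1:**
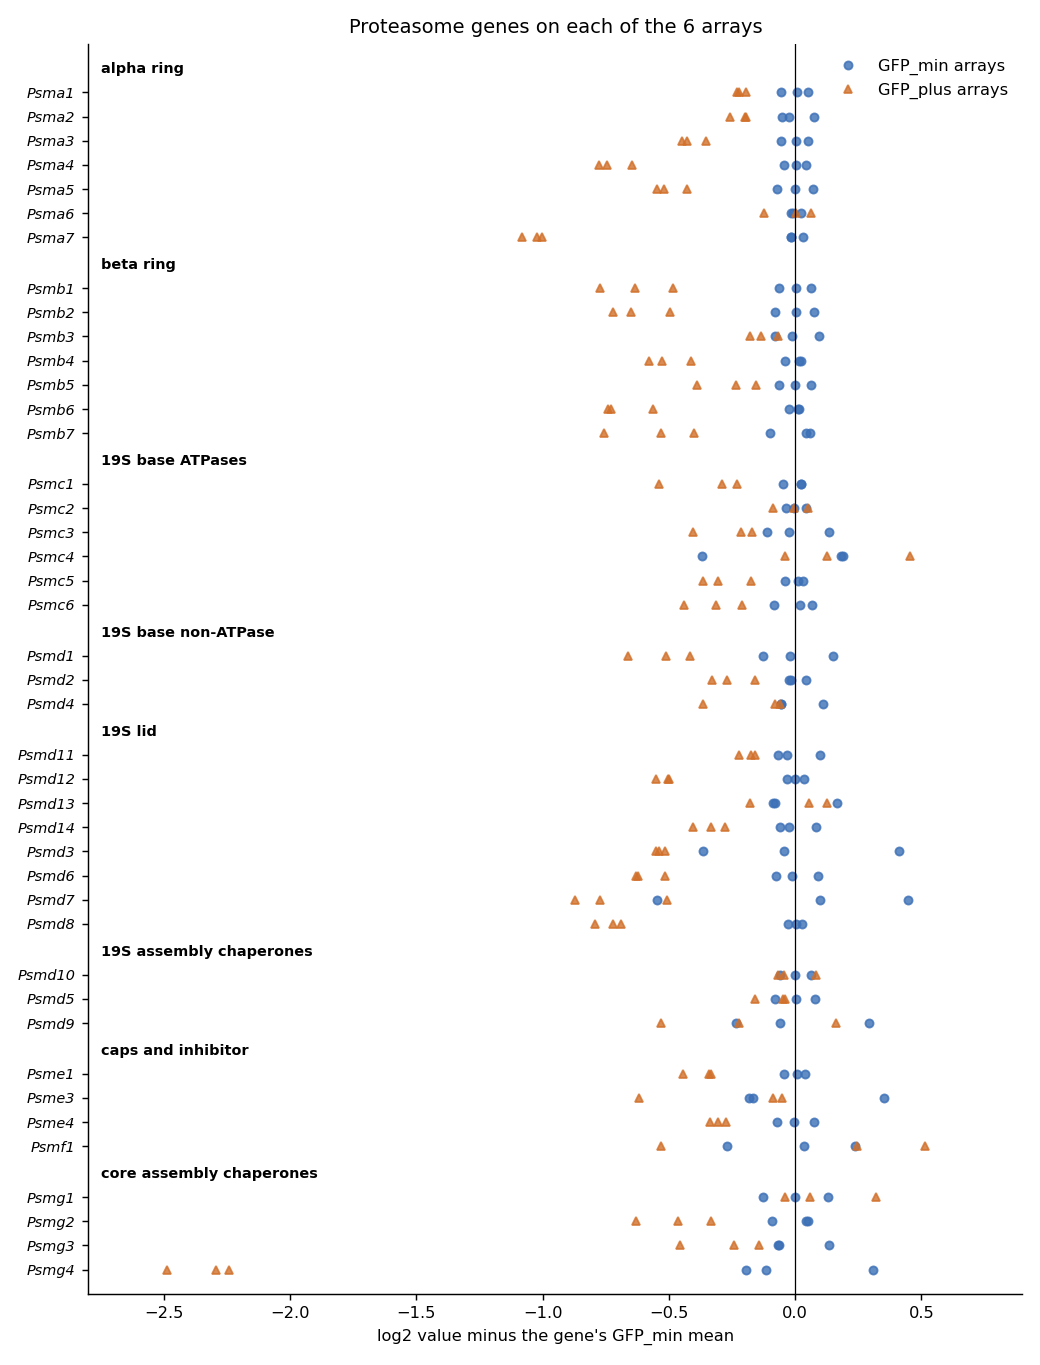
Each row is 1 of the 42 tested proteasome genes, ordered by part, and the horizontal axis gives the log2 value on each array minus that gene's GFP_min mean (circles, 3 GFP_min arrays; triangles, 3 GFP_plus arrays). On the deposited scale the triangles lie left of all circles in 30 genes and right of all circles in 0, and an added 0.53 log2 under ribosomal centring would leave most of these genes at or above their GFP_min mean.

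Calls in absolute terms depended on how the arrays were scaled. Centring each array on the median of tested probe sets adds 0.20 log2 to every difference and left 15 proteasome genes lower and 2 higher. Centring on 43 cytosolic ribosomal protein genes, whose own median difference was −0.55, adds 0.53 and gave 4 lower and 21 higher. Centring on the bacterial poly-A control RNAs adds −0.41 and gave 39 lower and 0 higher. Quantile normalization gave 27 lower and 0 higher. The genes that stayed lower under all 4 of these scalings were Psma4, Psma7, Psmd8 and Psmg4, of which Psmg4 was below the array median throughout GFP_plus. Over all tested genes 19.3% were lower and 41.4% higher with median centring, 11.2% and 68.4% with ribosomal centring, 55.8% and 3.89% with poly-A centring and 24.8% and 25.0% after quantile normalization. The 4 of 42 proteasome genes lower with ribosomal centring were thus near the share of all genes. The 21 of 42 that were higher formed a smaller share than the 68.4% of all genes. The same all-gene shares apply to the ribosomal counts of single parts below. On the deposited scale 39 of 42 proteasome genes lay below the all-gene median difference, a count that centring cannot alter because it adds the same constant to every gene. After quantile normalization the count was 39 as well.

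**Figure D2:**
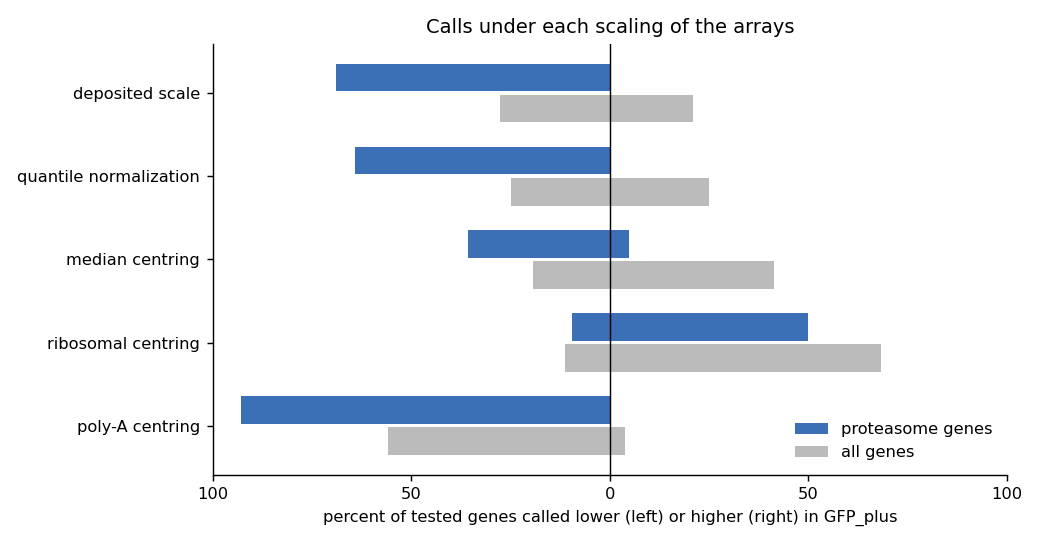
Bars give the percent of tested proteasome genes (blue, 42 genes) and of all tested genes (grey) called lower (left of 0) or higher (right of 0) in GFP_plus under each scaling of the arrays. Proteasome genes are mostly lower on the deposited scale, after quantile normalization and with poly-A centring. With ribosomal centring they are more often higher than lower (21 against 4), where 68.4% of all genes are higher and 11.2% lower.

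In the core particle 12 of 14 tested genes were lower, with a median of −0.50 on the deposited scale and 0.03 with ribosomal centring. The alpha ring, whose subunits form the gate, had 6 of 7 genes lower with a median of −0.41 (0.12 with ribosomal centring, 2 lower and 3 higher). Psma7, an alpha subunit, had the largest fall of the core. Its values were 11.33, 11.33 and 11.38 in GFP_min and 10.33, 10.34 and 10.27 in GFP_plus. The GFP_plus values lay together, well below the GFP_min values, and the fall of 1.04 log2 (SE 0.06, limma adjusted p = 4.52e-07) left GFP_plus at 48.8% of the GFP_min level. Its other probe set fell by 1.17. With ribosomal centring the gene was still called lower (−0.50).

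Psma4, also of the alpha ring, was 10.94, 10.98 and 10.89 in GFP_min and 10.19, 10.16 and 10.29 in GFP_plus, without overlap. It fell by 0.72 (SE 0.06, limma adjusted p = 1.32e-05), to 60.6% of the GFP_min level. The remaining called alpha genes fell less, Psma5 by 0.50, Psma3 by 0.41 and Psma1 and Psma2 by 0.22 each, and each of these 4 differences turned positive with ribosomal centring. Psma6 did not pass, with values of 11.82 to 11.86 in GFP_min and 11.71 to 11.90 in GFP_plus, and none of its 4 tested probe sets was called. Within the same ring, therefore, differences ran from −1.04 to −0.02.

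The beta ring had 6 of 7 genes lower, with a median of −0.56 that came to −0.03 with ribosomal centring (0 lower, 2 higher). Psmb6, the caspase-like catalytic subunit, was 10.34, 10.34 and 10.30 in GFP_min and 9.77, 9.59 and 9.60 in GFP_plus. Its fall of 0.68 (SE 0.07, limma adjusted p = 5.10e-05) was larger than the spread in either group. Psmb7, the trypsin-like subunit, was 8.01, 7.99 and 7.85 against 7.42, 7.55 and 7.19, a fall of 0.56 (SE 0.12, limma adjusted p = 0.00364) without overlap of the groups. Psmb5, the chymotrypsin-like subunit and the main target of bortezomib, had the smallest fall of the catalytic subunits (their falls were not tested against each other). It was 10.34, 10.46 and 10.40 in GFP_min and 10.17, 10.01 and 10.25 in GFP_plus, a fall of 0.26 (SE 0.08, limma adjusted p = 0.0205). Its call was lost without any of GFP_min b, GFP_min c, GFP_plus a or GFP_plus b, with limma adjusted p-values between 0.0518 and 0.0593, and its difference was 0.27 with ribosomal centring. The structural beta subunits Psmb1, Psmb2 and Psmb4 fell by 0.63, 0.62 and 0.51. The other probe set of Psmb4, with a mean of 11.14, differed by 0.11 (limma adjusted p = 0.591). Psmb3 differed by −0.13 on its brightest probe set (limma adjusted p = 0.0997) and by −0.40 on its other probe set, which was called lower.

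**Figure D3:**
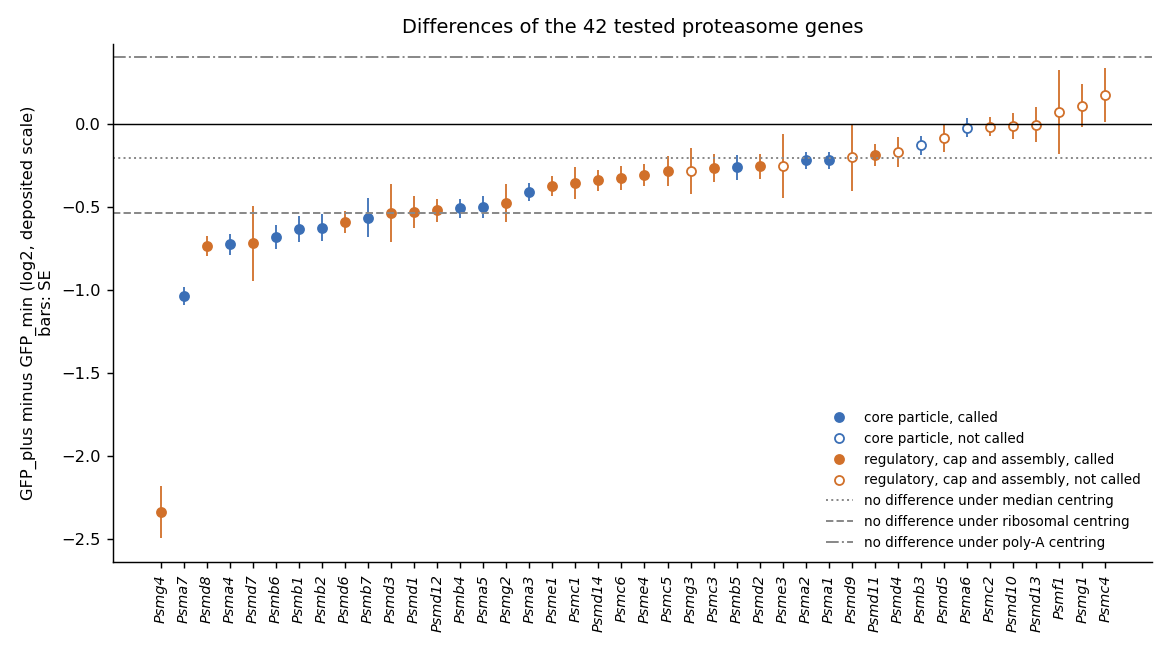
Points are the differences of the 42 tested proteasome genes, GFP_plus minus GFP_min in log2 on the deposited scale, with SE bars (3 arrays per group). Filled points passed the test and open points did not. Grey lines mark where no difference would lie under other centrings: only Psmg4, Psma7, Psmd8 and Psma4 are called lower relative to the dashed line of ribosomal centring.

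Among the 28 regulatory and assembly genes 17 were lower, with a median of −0.28. With ribosomal centring the median was 0.25, with 2 lower and 16 higher, against 11.2% and 68.4% of all genes. On the deposited scale, leaving out 1 array gave 11 to 14 lower, the fewest without GFP_min c. Of the 19S base and lid genes in the set, 13 of 17 were lower, with a median of −0.32 (0.21 with ribosomal centring, 1 lower and 10 higher). In the ATPase ring Psmc1, Psmc6, Psmc5 and Psmc3 fell by 0.35, 0.32, 0.28 and 0.27, each with non-overlapping groups, and all 4 turned positive with ribosomal centring. The fall of Psmc6 was that of its brightest probe set. Its 2 other tested probe sets differed by 0.29 and 0.18 and were not called (limma adjusted p = 0.292 and 0.508). The calls of Psmc3 and Psmc5 were lost when 1 array was left out: Psmc3 without GFP_min b or c or GFP_plus b, and Psmc5 without any array but GFP_plus b. Psmc2 did not pass (11.26 to 11.34 in GFP_min, 11.21 to 11.35 in GFP_plus). Its other tested probe set was 10.00, 10.32 and 10.11 in GFP_min and 9.88, 9.88 and 9.98 in GFP_plus. That probe set differed by −0.23 (limma adjusted p = 0.0559) and was not called either. Psmc4 was 9.86, 9.30 and 9.85 in GFP_min and 9.80, 10.13 and 9.63 in GFP_plus on its brightest probe set, where GFP_min b stood low and the groups overlapped. Its other probe set was called lower, by 0.31 (limma adjusted p = 0.0151). Of the base subunits outside the ring, the scaffold genes Psmd1 and Psmd2 fell by 0.53 and 0.25, and the call of Psmd2 was lost without GFP_min c or GFP_plus b. The ubiquitin receptor gene Psmd4 differed by −0.17 (limma adjusted p = 0.162), while its dimmest probe set, at about 3.8 log2, was called higher by 0.37.

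Of the lid genes in the set, 7 of 8 were lower, with a median of −0.53 (0.0067 with ribosomal centring). The lid subunit gene Sem1, which the choice by name leaves out, was higher by 0.46 and is described with the proteasome-bound factors. Psmd8, a lid subunit, was 10.69, 10.74 and 10.72 in GFP_min and 10.02, 9.99 and 9.92 in GFP_plus. The groups were well separated, and the fall of 0.74 (SE 0.06, limma adjusted p = 9.90e-06) held with ribosomal centring (−0.20). Psmd6 fell by 0.59, Psmd12 by 0.52 and Psmd14, which encodes the deubiquitinase of the particle, by 0.34. The other probe set of Psmd6, with a mean of 10.45, differed by −0.15 with overlapping groups (limma adjusted p = 0.370). Psmd11 fell by 0.18, and its call was lost when any 1 array was left out. Psmd3 and Psmd7 were called lower (−0.54 and −0.72) but varied between GFP_min arrays. Psmd7 was 7.04, 6.39 and 7.39 in GFP_min and 6.43, 6.07 and 6.17 in GFP_plus, so that GFP_min b lay among the GFP_plus values. Psmd3 was 7.16, 7.94 and 7.48 against 6.98, 7.01 and 6.99, and without GFP_min b its difference was −0.33 (limma adjusted p = 0.0750). The call of Psmd3 held only without GFP_min a, and that of Psmd7 only without GFP_min b or GFP_plus a. Both calls were also lost after quantile normalization. Psmd13 did not differ beyond its spread (9.22 ± 0.14 and 9.22 ± 0.16, mean ± SD, n = 3 each).

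The chaperones that build the 19S base showed no call. Psmd5, Psmd9 and Psmd10 differed by −0.08, −0.20 and −0.01, and their groups overlapped in all 3 genes. With poly-A centring all 3 were lower and with ribosomal centring Psmd5 and Psmd10 were higher. The chaperones of the core particle differed among themselves. Psmg4, which helps to assemble the alpha ring together with Psmg3, was 4.83, 5.25 and 4.75 in GFP_min and 2.70, 2.46 and 2.65 in GFP_plus, below the median of each GFP_plus array. Taking those medians as the floor, it was at least 4.24-fold lower in GFP_plus on the deposited scale (limma adjusted p = 2.05e-06). It passed the level filter only through GFP_min, where it was high, so that it had to differ and its call carries little weight. Its partner Psmg3 differed by −0.28 (limma adjusted p = 0.128). Of the other chaperone pair, Psmg2 fell by 0.48 on its brightest probe set and Psmg1 differed by 0.11 (limma adjusted p = 0.503). The other tested probe set of Psmg2 was also called lower, by 1.29 (limma adjusted p = 0.00930). The difference between Psmg1 and Psmg2 within this pair was not tested. With ribosomal centring the brightest probe set of Psmg2 turned to 0.06.

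Among the caps and the inhibitor 2 of 4 genes were lower on the deposited scale. With ribosomal centring 0 were lower and 3 higher, where 68.4% of all genes were higher. Psme1, a subunit of the interferon-inducible PA28 cap, was 11.07, 11.15 and 11.12 in GFP_min and 10.67, 10.77 and 10.78 in GFP_plus, a fall of 0.37 (SE 0.06, limma adjusted p = 0.000636) without overlap. Psme2, the partner subunit, had no probe set of its own. One shared with Psme2b, which cannot tell them apart, read 11.05, 11.14 and 11.10 against 10.55, 10.55 and 10.58, a difference of −0.54 (limma adjusted p = 4.31e-05). Psme4, the PA200 activator gene, was 10.31, 10.46 and 10.38 against 10.11, 10.04 and 10.08 on its brightest probe set, a fall of 0.31 (SE 0.07, limma adjusted p = 0.00414). It was the only proteasome gene with probe sets called in opposite directions: of 6 tested, 2 were lower and 1, at 4.67, 4.30 and 4.76 in GFP_min and 5.25, 5.20 and 4.95 in GFP_plus, was higher by 0.56. The nuclear PA28 gene Psme3 differed by −0.25 (limma adjusted p = 0.315). Psmf1, the gene of the inhibitor PI31, varied widely in GFP_plus (4.39, 5.17 and 5.44) around 5.16, 4.65 and 4.96 in GFP_min, while another of its probe sets was called lower by 0.60.

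Ratios inside an array do not depend on how arrays are centred, and they showed unequal change of the parts. The mean of the 19S base genes minus that of the core genes, set to its GFP_min mean, was −0.01, −0.02 and 0.03 in GFP_min and 0.27, 0.27 and 0.18 in GFP_plus. The base thus stood 0.24 log2 higher relative to the core in GFP_plus, and the groups did not overlap. For the lid genes in the set the same ratio was −0.07, 0.02 and 0.05 against 0.04, −0.01 and 0.01, which overlapped. The lid subunit gene Sem1, higher by 0.46, lies outside the set. The ratio was not computed with it, so the overlap covers only the lid genes taken by name. The base shift was 0.19 without Psmc4 and 0.20 with Psma7 left out of the core. The base chaperones stood 0.37 higher relative to the core, without overlap. On the deposited scale the core mean itself differed by −0.46, against a median of 0.0023 over all tested genes. A gene without change therefore also stands higher relative to the core, and these shifts are no gain particular to the parts. How often the ratio of other genes to the core was free of overlap was not counted. The core chaperones without Psmg4, whose level in GFP_plus is only a bound, shifted by 0.25 against the core, also without overlap. That shift takes Psmg2 at −0.48. Its other probe set fell by 1.29, and the ratio was not computed with it, so the direction of the shift is not settled. The alpha and beta rings kept their ratio within the spread, with a shift of 0.04. These ratios were given no test, and their sizes rest on the brightest probe set of each gene.

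**Figure D4:**
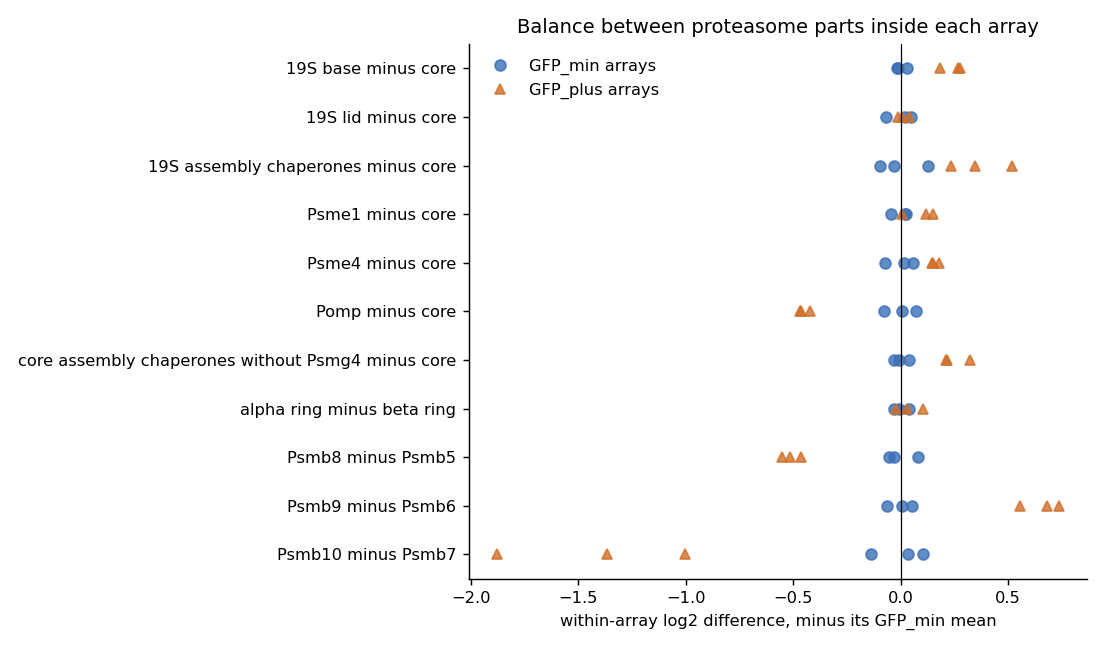
Each row is a within-array log2 ratio between parts or genes of the proteasome, shown on each array as its distance from the GFP_min mean (circles, GFP_min; triangles, GFP_plus). On brightest probe sets the 19S base shifts by 0.24 against the core in GFP_plus (the core mean itself differs by −0.46 on the deposited scale). The core chaperones without Psmg4 shift by 0.25, a value that depends on the probe set taken for Psmg2. The lid ratio (taken without Sem1) and the alpha-to-beta ratio overlap between the groups, and these ratios are the same under every centring.

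The immunoproteasome subunits, which were left out of the set, did not move together. Psmb10 was 9.78, 9.93 and 9.86 in GFP_min and 7.96, 7.57 and 8.09 in GFP_plus, a fall of 1.98 (SE 0.13, limma adjusted p = 1.71e-06). Psmb8 was 11.28, 11.55 and 11.37 against 10.65, 10.55 and 10.69, a fall of 0.77 (SE 0.08, limma adjusted p = 3.04e-05). Both remained lower under every scaling. Psmb9 was 10.83, 10.90 and 10.90 against 10.87, 10.82 and 10.89, with overlapping groups on the deposited scale (difference −0.02, limma adjusted p = 0.822). It was lower with poly-A centring and higher with median or ribosomal centring. Within arrays, Psmb8 relative to Psmb5 shifted by −0.51 in GFP_plus and Psmb10 relative to Psmb7 by −1.42, whereas Psmb9 relative to Psmb6 stood 0.66 higher, each without overlap.

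Of 17 tested proteasome-bound and assembly factors, 5 were lower (29.4%, against 27.6% of all tested genes) and 5 higher (29.4%, against 21.0%), near the shares of all genes, with a median of −0.08 that was 0.45 with ribosomal centring. Pomp, the chaperone that completes the core particle, was 11.12, 11.29 and 11.19 in GFP_min and 10.29, 10.29 and 10.28 in GFP_plus, a fall of 0.91 (limma adjusted p = 2.35e-06) without overlap. Inside the arrays Pomp shifted by −0.45 against the mean of the core genes. Ube3c, a ubiquitin ligase bound to the proteasome, fell by 0.66, and lost its call with ribosomal centring. Sem1, a small lid subunit not named after the family, was 12.79, 12.29 and 12.83 in GFP_min and 12.99, 13.32 and 12.98 in GFP_plus, higher by 0.46 (limma adjusted p = 0.0204), a call lost without GFP_plus b. Ubr4, a ubiquitin ligase, was higher by 0.54, Ublcp1, the proteasome phosphatase, by 0.42, and Zfand5, a proteasome-binding zinc finger protein, by 0.35. With poly-A centring none of these 4 was called and Zfand5 turned to −0.05.

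Among 11 tested genes of ubiquitin shuttling and the p97 segregase, 2 were lower (18.2%, against 27.6% of all genes) and 1 higher (9.09%, against 21.0%), with a median of −0.14 (0.40 with ribosomal centring). The shuttle factor genes Rad23b and Ubqln1 fell by 0.86 and 0.28, of which Ubqln1 turned to 0.25 with ribosomal centring. The p97 cofactor gene Ufd1 was higher by 0.33, a call lost without 1 of 4 arrays (GFP_min b or c, GFP_plus a or c) and turned to −0.07 with poly-A centring. Some genes of these lists were not analysed here.

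Of 11 tested genes of factors known to act on proteasome transcription, 5 were higher (45.5%, against 21.0% of all genes) and 1 lower (9.09%, against 27.6%), a contrast that was not tested. The median was 0.28, which was −0.12 with poly-A centring (0 higher, 3 lower). Stat3 was 10.69, 10.60 and 10.53 in GFP_min and 11.16, 11.08 and 11.23 in GFP_plus, higher by 0.55 (limma adjusted p = 0.000116). Mafg, a small Maf partner of the Nfe2l1 and Nfe2l2 products, was higher by 0.48, and Nfya, a subunit of the CCAAT-binding factor, by 0.51. Ngly1, the deglycosylase that activates the Nfe2l1 product, was higher by 0.36 and Nfe2l2 by 0.32, and both turned negative with poly-A centring, under which none of the 5 was called. Keap1, which targets the Nfe2l2 product for degradation, was the gene that fell, by 0.45 (0.08 with ribosomal centring). Nfe2l1 itself, named here for its role, was 5.29, 5.92 and 5.31 in GFP_min and 5.35, 5.22 and 5.59 in GFP_plus, with overlapping groups.

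**Figure D5:**
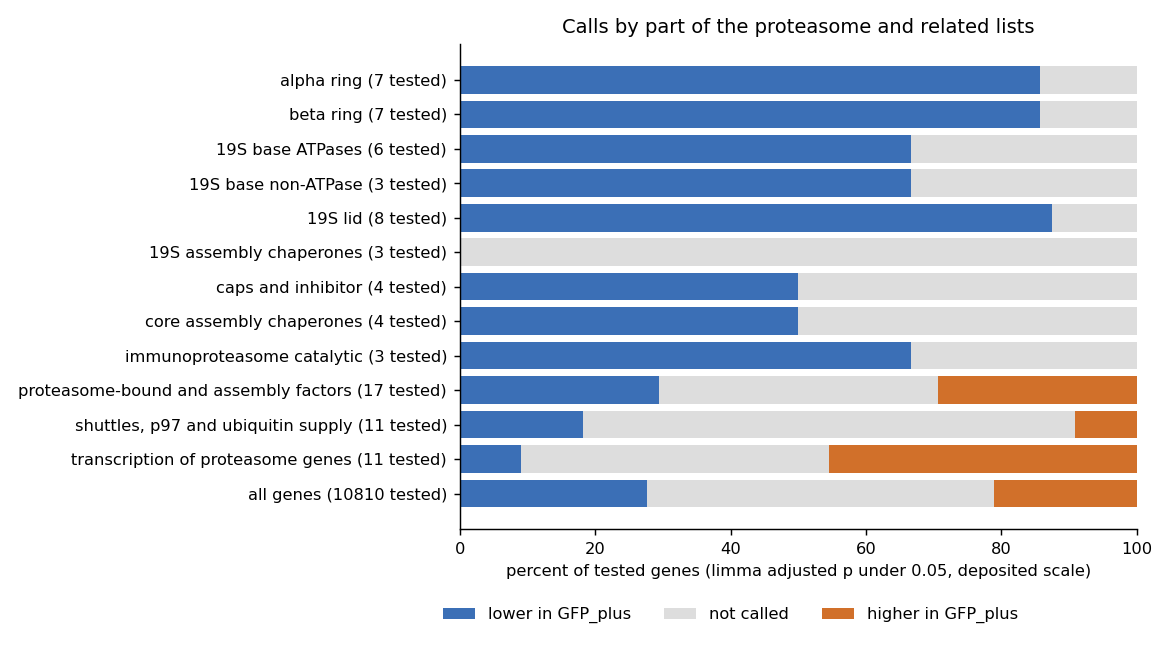
Bars give the percent of tested genes of each part or related list that were lower (blue), not called (grey) or higher (orange) in GFP_plus by limma on the deposited scale, with the number tested in brackets. Proteasome parts taken by name hold no higher gene (12 of 14 core genes are lower). Sem1, a lid subunit counted here with the proteasome-bound factors, is higher by 0.46. The lists around the proteasome and all genes hold both directions. With ribosomal centring the proteasome genes turn to 4 lower and 21 higher of 42, where 11.2% of all genes are lower and 68.4% higher.

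Promoters of 36 of the 44 genes were matched in RefSeq (GRCm38.p6), and the 250 bases before each start were searched on both strands. The core of the antioxidant response element that Nfe2l1 and Nfe2l2 products bind, TGACNNNGC, was found in 5 of the 36 (13.9%), against 11.5% of 27025 genes with a promoter. Of the 22 matched genes called lower, 4 held it: Psmb5, Psmb6, Psmc6 and Psmd12. The CCAAT box lay in 13 of the 36 (36.1%), against 37.5% of all genes, and the AP-1 site TGACTCA in 1 (Psmd9), against 5.16%. The antioxidant element and AP-1 site share letters and can overlap. The shares of the first 2 motifs in the proteasome genes were thus near those of all genes. A match is a description of letters only. The 4 sequences below show the promoter of Psma7, the core gene with the largest fall, beside 3 lower genes with an antioxidant element, which lay 47 to 39 bases before the start in Psmb5, 9 to 1 in Psmb6 and 247 to 239 in Psmd12. Capitals mark the antioxidant element (on either strand) or, in Psma7, the CCAAT box. The windows are chr2:180042465-180042714 (minus strand), chr14:54617996-54618245 (minus), chr11:70525107-70525356 (plus) and chr11:107479278-107479527 (plus), each written 5′ to 3′ along the gene.
Psma7: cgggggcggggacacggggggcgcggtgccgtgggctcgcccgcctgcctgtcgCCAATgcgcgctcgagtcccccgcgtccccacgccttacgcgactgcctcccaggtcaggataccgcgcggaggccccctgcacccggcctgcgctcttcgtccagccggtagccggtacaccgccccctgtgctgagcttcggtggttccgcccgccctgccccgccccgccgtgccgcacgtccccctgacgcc
Psmb5: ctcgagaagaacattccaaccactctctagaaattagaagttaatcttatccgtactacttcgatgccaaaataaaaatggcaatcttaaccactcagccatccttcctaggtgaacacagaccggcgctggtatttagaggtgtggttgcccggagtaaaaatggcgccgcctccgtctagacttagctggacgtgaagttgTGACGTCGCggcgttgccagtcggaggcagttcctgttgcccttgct
Psmb6: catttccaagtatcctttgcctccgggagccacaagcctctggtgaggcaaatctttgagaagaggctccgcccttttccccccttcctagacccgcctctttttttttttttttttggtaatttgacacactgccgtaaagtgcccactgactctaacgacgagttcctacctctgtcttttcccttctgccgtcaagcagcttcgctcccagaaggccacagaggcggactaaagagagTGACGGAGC
Psmd12: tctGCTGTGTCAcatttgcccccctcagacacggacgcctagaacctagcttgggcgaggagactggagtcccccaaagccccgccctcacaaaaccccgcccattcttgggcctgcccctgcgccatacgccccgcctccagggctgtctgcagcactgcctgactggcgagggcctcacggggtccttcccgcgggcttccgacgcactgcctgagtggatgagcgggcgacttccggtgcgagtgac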

How the data were processed

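Biotin-labelled RNA (100 ng, per the labels) was hybridised to 6 Affymetrix arrays. The authors deposited log2 values for 45101 probe sets; GCRMA is the tool named in the submitters' processing notes, with version, settings and filters not given in the sources used here. The log2 scale was read from the values. Probe sets were named from the platform annotation, of which 34945 had a single symbol, 932 several and 9160, controls aside, none. Leaving out 64 controls, 22956 probe sets above their array's median on at least 3 of 6 arrays entered limma 3.58.1 under R 4.3.3 (linear fit and eBayes with an intensity trend, Benjamini-Hochberg over all tested probe sets, threshold 0.05). Each gene was represented by its brightest probe set. Members, lists and tests were chosen with earlier results of these data known, so no list was tested. The 4 largest falls, the catalytic and immunoproteasome subunits, Psme1, Psme2 and genes with opposed probe sets were named with all values, and of the related lists up to 6 called genes each. Other settings changed the filter, variance model, array weights, scaling, probe set, size threshold, replicate block and arrays; leaving out probe sets marked _x_at or _s_at, and the ratios without Psmg4, Psmc4 or Psma7, were added after seeing the data. The fit was checked on simulated data. Figures used matplotlib 3.10.9 in Python 3.11.15. Precision is limited by how few arrays there are.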

Additional observations from a re-analysis of the deposited data

How the results depend on the processing

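With each group centred on its own mean, arrays of the same letter correlated between groups at −0.18, −0.30 and −0.22. Arrays of different letters correlated at −0.02 to 0.24. With 3 arrays per group the centring ties these values to each other. They cannot decide whether the letters pair the samples. The fit with the replicate block left 24 proteasome genes lower, 11 in the core and 13 outside it. Median centring gave 9734 higher probe sets, 2 higher and 15 lower proteasome genes (core 1 higher; regulatory 1 higher, 6 lower) and 17 higher and 5 lower related genes (the 3 lists around the proteasome and the immunoproteasome, 11 and 10 on the deposited scale). Ribosomal centring gave 16380 higher and 2008 lower probe sets, 21 higher and 4 lower proteasome genes (core 5 and 2, regulatory 16 and 2) and 31 higher and 4 lower related genes. Poly-A centring gave 1089 higher and 11685 lower probe sets and 0 higher and 24 lower related genes. Tested against 0.25 log2, 2009 probe sets were higher and 3159 lower, 13 proteasome genes were lower (5 regulatory) and 3 related genes were higher and 5 lower. The dimmest probe set gave 1 higher proteasome gene, a regulatory one, and 5 higher and 5 lower related genes. Without 1 array, 22 to 26 proteasome genes were lower and 0 higher, 11 to 14 of the regulatory and 11 to 12 of the core genes were lower, 9 to 11 related genes were higher and 7 to 10 lower, and 3852 to 4491 probe sets were higher and 4616 to 4858 lower. Of the 29 lower genes, 22 kept the call without each array in turn. Differences that changed sign follow, and their cause was not tested beyond the added constant of each centring. With array weights the log2 difference was Psmd13 0.093 and Psmf1 −0.24. After quantile normalization the log2 difference was Nfe2l1 0.074 and Psmd13 0.0025. With median centring the log2 difference was Nfe2l1 0.082, Psmd4 0.034, Psmd13 0.20, Psmd5 0.12, Psmd9 0.0036, Psmc2 0.19, Psmd10 0.19, Psmd11 0.017, Psma6 0.18, Psmb9 0.18 and Psmb3 0.075. With ribosomal centring the log2 difference was Psmb5 0.27, Psma1 0.32, Psmc5 0.25, Psmd2 0.28, Psmc1 0.18, Psmc3 0.27, Nfe2l1 0.41, Psme1 0.16, Psmc6 0.21, Psme3 0.28, Psmd4 0.37, Psmd14 0.20, Psmd13 0.53, Psmd5 0.45, Psmd9 0.34, Psmg3 0.25, Ubqln1 0.25, Psmg2 0.059, Psme4 0.23, Psmd1 0.0056, Psma5 0.035, Psmc2 0.52, Psmd10 0.52, Psmd11 0.35, Psma6 0.51, Psma2 0.32, Psma3 0.12, Psmd12 0.016, Psmb9 0.52, Keap1 0.081, Psmb4 0.028 and Psmb3 0.41. With poly-A centring the log2 difference was Zfand5 −0.054, Psmc4 −0.23, Nfe2l2 −0.087, Ngly1 −0.049, Ufd1 −0.075, Psmf1 −0.33 and Psmg1 −0.29. With the mean of probe sets the log2 difference was Psma1 0.028, Psmc4 −0.063, Psmc6 0.051, Psmd13 0.014 and Psmf1 −0.18. With the dimmest probe set the log2 difference was Psma5 0.060, Nfya −0.13, Zfand5 −0.010, Psma6 0.0046, Psme3 0.22, Psmd13 0.0013, Psmc6 0.18, Psmg3 0.086, Psmd4 0.37, Psmb1 0.078, Psmf1 −0.016, Psma1 0.27, Psmc4 −0.31 and Psmb4 0.11. Without x_at and s_at probe sets, chosen after seeing the data, the log2 difference was Psmf1 −0.60. Without 1 array the ranges of those that changed sign were Nfe2l1 −0.23 to 0.088, Psma6 −0.061 to 0.032, Psmb9 −0.041 to 0.0027, Psmc2 −0.046 to 0.023, Psmc4 −0.0048 to 0.29, Psmd10 −0.057 to 0.021, Psmd13 −0.064 to 0.088 and Psmf1 −0.14 to 0.38.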

Other observations

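Within GFP_plus, replicate b held the lowest value for 24 of the 42 tested proteasome genes, replicate c for 12 and replicate a for 6. Within GFP_min, replicate a was lowest for 20, replicate c for 12 and replicate b, whose description differs, for 10. Over the 42 genes the mean log2 level was 9.61, 9.68 and 9.63 on the GFP_min arrays and 9.26, 9.22 and 9.28 on the GFP_plus arrays. In 3 genes whose brightest probe set was not called, another probe set was called lower.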
